A study of Mus musculus with 4 samples.

Results

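The NR4A receptors and the early growth response (EGR) factors are transcription factors whose genes are switched on within minutes of a signal. The set was given by symbol as Nr4a1, Nr4a2, Nr4a3, Egr1 and Egr2, and 4 of these 5 symbols had a row among the 15607 genes of the deposited table. Egr2 had no row and is not analysed here. The members were selected on their role, with the counts and fold changes of knockout over wild type in these same 4 libraries known, and Nr4a1 had already been named there among the lower genes. The values of that comparison below therefore describe the members and support no statement about them as a set.

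Lineage-negative cells, the marrow fraction left once mature blood cells are depleted, were sorted from 4 mice and profiled by RNA-seq to ask whether loss of Mel18 alters transcription in hematopoietic stem and progenitor cells. Mice 5 and 6 were labelled Mel18 knockout, a conditional loss in the hematopoietic system of the Polycomb protein encoded by Pcgf2, and mice 1 and 3 were labelled wild type. The driver of the deletion, the exons removed, and the strain, age and treatment of the mice are details that the labels do not state. The sample titles call the cells HSCs, for hematopoietic stem cells, while the deposited counts are named for lineage-negative (Lin-) cells. Each library is a separate mouse, and cDNA was made with a low-input kit that does not mark strand.

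Total counts were 46240864 and 44642002 in knockout mice 5 and 6, and 35599564 and 37197363 in wild type mice 1 and 3, so 1 count was worth between 0.0216 and 0.0276 CPM, the unit of counts scaled to library size. Pcgf2 had 303 and 321 counts in the libraries labelled knockout, against 210 and 158 in those labelled wild type (log2 fold change 0.44 ± 0.20 SE; edgeR quasi-likelihood adjusted p = 0.575). These counts cover the whole gene and cannot check a deletion of unstated exons, so every direction below is between libraries as labelled. Progenitor markers were present, with Kit and Cd34 at means of 216 and 151 CPM over the 4 libraries. Transcripts of the neutrophil lineage were also present, with Ngp at a mean of 4236 CPM. In sorted bulk RNA, fewer cells of a type and less RNA per cell cannot be told apart.

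NR4A proteins are orphan nuclear receptors that act without a known physiological ligand, so their activity largely follows the amount of protein made. They bind a site called the NBRE, and Nr4a1 and Nr4a2 can also pair with retinoid X receptors. Mice lacking both Nr4a1 and Nr4a3 develop acute myeloid leukemia, and mouse Egr1 restrains the division and exit of stem cells from the marrow. Both families are induced through kinase cascades that act on serum response factor, CREB and MEF2 factors.

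In GENCODE M21 on mm10 Nr4a1 lies on chromosome 15 from 101254269 to 101274795 on the plus strand, and Nr4a2 on chromosome 2 from 57106830 to 57124003 on the minus strand. Nr4a3 lies on chromosome 4 from 48045153 to 48086447 on the plus strand. The spans equal those in the deposited table, and no other annotated gene overlaps any of the measured members, so reads from an antisense or overlapping neighbour in that annotation do not enter these counts.

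The 3 NR4A genes share a start region rich in the core of the cyclic AMP response element (CRE), TGACG, which CREB binds and which the full element TGACGTCA carries on both strands. They are shown because these paralogues share the feature, and no link between it and their levels was tested. The sequences are from RefSeq on GRCm38.p6, the assembly also called mm10, read 5′ to 3′ along the gene up to the base before the annotated RefSeq start, or up to the first base in an annotated exon. Capitals mark TGACG on either strand and the EGR site GCGNGGGCG on either strand.
Nr4a1, chr15:101266596-101266845, plus strand: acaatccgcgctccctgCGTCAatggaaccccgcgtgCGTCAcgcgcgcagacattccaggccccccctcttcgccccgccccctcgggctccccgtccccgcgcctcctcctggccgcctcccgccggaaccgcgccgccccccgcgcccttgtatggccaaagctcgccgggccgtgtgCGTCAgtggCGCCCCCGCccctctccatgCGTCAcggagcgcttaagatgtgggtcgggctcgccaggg
Nr4a2, chr2:57124004-57124253, minus strand: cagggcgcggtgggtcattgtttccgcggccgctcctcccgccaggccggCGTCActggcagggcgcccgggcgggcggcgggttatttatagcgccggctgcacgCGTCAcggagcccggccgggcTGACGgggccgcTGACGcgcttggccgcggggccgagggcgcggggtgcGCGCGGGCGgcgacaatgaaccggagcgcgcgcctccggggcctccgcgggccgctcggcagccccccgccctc
Nr4a3, chr4:48045055-48045152, plus strand: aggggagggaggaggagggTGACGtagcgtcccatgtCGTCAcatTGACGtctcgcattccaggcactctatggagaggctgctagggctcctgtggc

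Within the 250 bases before the RefSeq start, each of the 3 genes held 4 copies of TGACG on either strand, 1 of those of Nr4a3 lying past the bases printed. At least 1 copy was found before 17.8% of the 32851 RefSeq starts in the table, and 4 or more before 0.137%, a number of copies chosen after these promoters were read. None of the 3 held the full TGACGTCA, found at 1.55% of starts, so no copy overlaps a full element. In Nr4a1 the 4 copies began 233, 213, 69 and 40 bases before the start. The EGR site lay 60 to 52 bases before the start of Nr4a1 and 74 to 66 bases before that of Nr4a2, and occurred at 4.70% of all starts. The NBRE AAAGGTCA, the CArG box of serum response factor and the MEF2 site were not matched in these 3 windows. They occurred, in that order, at 1.34%, 1.47% and 0.508% of all starts. The CArG box and the MEF2 site were searched for in strict form only, so variants of them would be missed. Such matches describe letters and are not evidence of binding, and no binding was measured here.

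Nr4a1 was the member that fell. Its level in the libraries labelled knockout was less than 50% of that in the libraries labelled wild type, while Nr4a2 differed little, and the lower means of Nr4a3 and Egr1 did not pass the test. Of the 4 members, 1 was called at an adjusted p under 0.05, and 0.135% of all genes were. For 2 members the higher knockout library was under the lower wild type library (20.9% of all genes) and for 1 member the lower knockout library was over the higher wild type library (21.4% of all genes). The median log2 fold change of the members was -0.41, against -0.0053 over all genes. Since the contrast was known when the members were chosen, nothing is read from these counts.

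Nr4a1, also called Nur77, encodes the receptor that mouse marrow needs to form patrolling monocytes. It had 752 and 801 counts in knockout mice 5 and 6, or 16.3 and 17.9 CPM, against 1375 and 1326 counts in wild type mice 1 and 3, or 37.6 and 36.6 CPM. The groups stood well apart, and within each label the mice were within 1.10-fold (knockout) and 1.03-fold (wild type) of each other. The mean was 17.1 ± 1.17 CPM in knockout and 37.1 ± 0.689 CPM in wild type (SD, n = 2 mice each), and the fitted level fell to 46.1% of wild type. The log2 fold change was -1.12 ± 0.10 (SE), and 129 genes had a more negative one. Its edgeR quasi-likelihood adjusted p in the fit of the whole table was 0.0260. The fold held in every alternative run, between -1.19 and -1.05, but the call did not. It was lost by limma voom (adjusted p = 0.0803), by quasi-likelihood without robust estimation (adjusted p = 0.0517) and when knockout mouse 5 was left out, where it was at an adjusted p of 0.214.

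Nr4a2, or Nurr1, best known for its part in dopamine neurons, had nearly the same level in all 4 libraries. It had 238 and 240 counts in knockout mice 5 and 6 (5.15 and 5.37 CPM) and 176 and 179 in wild type mice 1 and 3 (4.81 and 4.94 CPM). Both knockout values lay above both wild type values, yet the exact Poisson 95% intervals of all 4 libraries overlapped, running from 4.13 to 6.10 CPM at the extremes. The log2 fold change was 0.11 ± 0.17 (SE; quasi-likelihood adjusted p = 0.848), and it stayed between 0.079 and 0.14 in every alternative run. The log2 fold changes of Nr4a1 and Nr4a2 were thus -1.12 and 0.11, and the difference between the 2 genes was not tested.

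Nr4a3, or Nor1, was the least abundant member and its value turned on 1 wild type mouse. It had 47 and 53 counts in knockout mice 5 and 6 (1.02 and 1.19 CPM), against 79 and 35 in wild type mice 1 and 3 (2.16 and 0.966 CPM). Wild type mouse 1 stood above the other 3 libraries, and its Poisson interval of 1.71 to 2.69 CPM did not meet that of wild type mouse 3, 0.673 to 1.34 CPM. The wild type mice were 2.23-fold apart. The log2 fold change of -0.50 ± 0.40 (SE; quasi-likelihood adjusted p = 0.704) turned to 0.19 without wild type mouse 1 (adjusted p = 0.901) and was -0.98 without wild type mouse 3 (adjusted p = 0.0861).

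Egr1, the zinc finger factor at the head of the EGR family (chromosome 18, 34859823 to 34864984, plus strand, GENCODE M21 on mm10), had 2774 and 2018 counts in knockout mice 5 and 6 (60.04 and 45.19 CPM), against 2476 and 2294 in wild type mice 1 and 3 (67.69 and 63.34 CPM). The groups did not overlap, but knockout mouse 5 was nearer to wild type mouse 3 than to the other knockout mouse. The knockout mice were 1.33-fold apart and their Poisson intervals, 57.8 to 62.3 and 43.2 to 47.2 CPM, did not meet. The log2 fold change was -0.32 ± 0.14 (SE; quasi-likelihood adjusted p = 0.569), with -0.54 without knockout mouse 5 and -0.13 without knockout mouse 6. These intervals, like those above, cover counting error only.

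**Figure D1:**
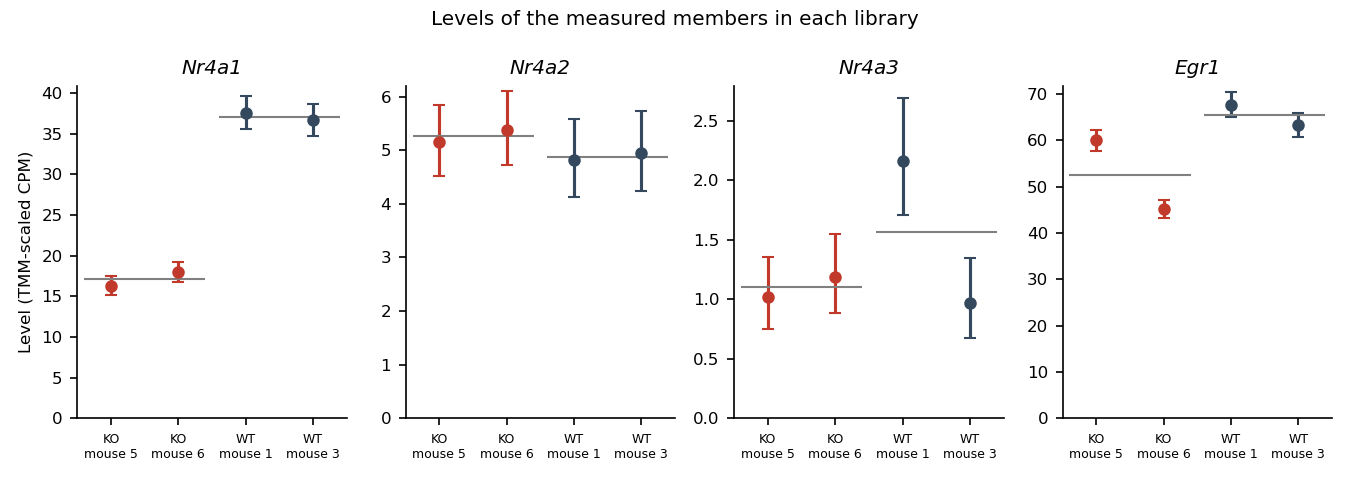
Level of each measured member in TMM-scaled CPM (y axis, from 0, with its own scale per gene) in the 4 libraries, knockout in red and wild type in dark grey. Bars are exact Poisson 95% intervals and grey lines are group means. Nr4a1 is at 16.3 and 17.9 CPM in knockout and at 37.6 and 36.6 CPM in wild type, while wild type mouse 1 stands alone for Nr4a3.

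The authors' deposited table also calls 1 of the 4 members at its adjusted p under 0.05, and 1.13% of all genes. The authors' deposited table gives Nr4a1 a log2 fold change of -1.12 at an adjusted p of 7.64e-09. It gives the other members adjusted p values of 0.645 (Egr1), 0.945 (Nr4a3) and 0.985 (Nr4a2). The edgeR likelihood ratio test, run here on the same counts, gave Nr4a1 an adjusted p of 7.57e-09. Of the 43 other immediate early genes described below, the authors' values call 12, all lower, beside the 1.13% of all genes.

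Levels can be set against each other between genes only per length. On the RPKM scale (CPM per kb of annotated exon) the order was the same in every library, with Egr1 first, then Nr4a1, Nr4a2 and Nr4a3. Egr1 averaged 11.7 ± 2.34 RPKM in knockout and 14.6 ± 0.685 RPKM in wild type, and Nr4a1 averaged 4.87 ± 0.335 RPKM in knockout and 10.6 ± 0.196 RPKM in wild type (SD, n = 2 each). Nr4a2 averaged 1.30 ± 0.0389 RPKM in knockout and 1.20 ± 0.0229 RPKM in wild type, and Nr4a3 averaged 0.184 ± 0.0200 RPKM in knockout and 0.261 ± 0.141 RPKM in wild type. No neighbours in this order overlapped among libraries of the same label. In wild type mice 1 and 3 Nr4a1 exceeded 67.0% and 65.9% of all genes on this scale, which gives it a middling to high level, and in knockout mice 5 and 6 it exceeded 49.5% and 51.3%. Nr4a3, at the other end, exceeded between 7.91% and 14.6% of genes.

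The makeup of the NR4A transcripts, a ratio within each library that no scaling of libraries can move, differed along with the level. Nr4a1 made up 76.3% and 77.1% of the summed NR4A RPKM in knockout mice 5 and 6, against 87.4% and 88.3% in wild type mice 1 and 3. Nr4a2 made up 20.9% and 20.0% in the knockout mice, against 9.67% and 10.3% in the wild type mice. Per kb there were 3.65 and 3.86 Nr4a1 transcripts for each of Nr4a2 in knockout mice 5 and 6, and 9.04 and 8.57 in wild type mice 1 and 3. Egr1 stood at 2.89 and 1.97 times the RPKM of Nr4a1 in knockout mice 5 and 6, and at 1.41 and 1.35 times in wild type mice 1 and 3. The groups did not overlap in any of these ratios except the share of Nr4a3, and no test was made of them, since with 2 mice a group the smallest two-sided exact permutation p is 0.333.

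**Figure D2:**
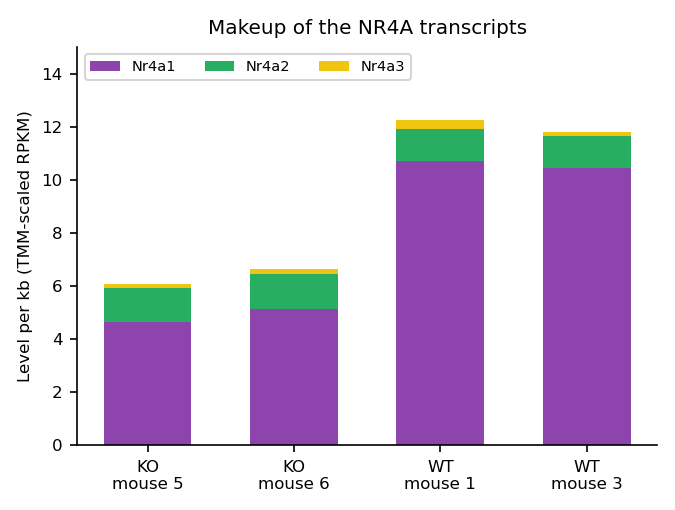
Stacked TMM-scaled RPKM of Nr4a1, Nr4a2 and Nr4a3 (y axis, from 0) in each library, knockout to the left. The sum is 6.08 and 6.63 RPKM in knockout mice 5 and 6 and 12.3 and 11.8 RPKM in wild type mice 1 and 3, and the Nr4a1 segment accounts for nearly all of that difference.

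Genes of the surrounding pathway were read from lists of regulators, partners and linked genes, of which 40 of 42 listed were measured in 7 lists. By quasi-likelihood 0 of the 40 were called and 0 had an unadjusted p under 0.05, and the DESeq2 Wald test, limma voom and the edgeR likelihood ratio test also called 0. With wild type mouse 3 left out 1 was called, Mef2a, which was lower. Their median log2 fold change was -0.017. Egr3, a close relative of Egr1, had the lowest value, -0.43 ± 0.26 (SE; quasi-likelihood adjusted p = 0.640), with 56 and 53 counts in knockout mice 5 and 6 and 53 and 65 in wild type mice 1 and 3. Nab2, a corepressor that EGR factors both bind and induce, stood at -0.27 on the log2 scale (adjusted p = 0.669), and its relative Nab1 had -0.082 (adjusted p = 0.803).

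Of the factors that relay signals to these promoters, Srf had a log2 fold change of 0.017 and Creb1 of 0.082 (quasi-likelihood adjusted p = 0.972 and 0.799). All 6 listed serum response factor genes lay between -0.15 and 0.11 and all 6 CREB genes and coactivators between -0.10 and 0.085. Of the 12 kinases of the RAF, MEK, ERK and RSK cascade 0 were called, and Rps6ka5 had the lowest value, -0.18. The 8 MEF2 factors and class IIa deacetylases lay between -0.41 and 0.097, and Mef2a and Hdac9, with the smallest p, had -0.18 and -0.21. Rxra and Rxrb, partners of the NR4A receptors, had 0.049 and -0.050. The 3 genes linked to the members in stem and progenitor cells were Bmi1 (0.064), Cdkn1a (-0.16) and Cebpa (-0.0098), with adjusted p of 0.870, 0.719 and 0.982. These are transcript levels and say nothing of kinase or factor activity.

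Other immediate early genes were lower far more often than not. Of 47 listed, 43 were measured, of which 4 fell over all genes by quasi-likelihood (0.103% of all genes fell), 0 rose (0.032% of all genes rose) and 39 did not pass. Their median log2 fold change was -0.41, with 41 of 43 below 0 (51.2% of all genes were). The groups stood apart, knockout lower, for 33 of them (20.9% of all genes). An unadjusted p under 0.05 was found for 29 of them and for 8.89% of all genes. Lower immediate early genes had been seen in these data before the list was written, so these counts are not independent evidence.

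The 4 that fell were Dusp1, a phosphatase that switches off MAP kinases, Btg2, which slows division and promotes mRNA decay, and the zinc finger factors Klf2 and Klf6. Dusp1 was at 123 and 132 CPM in knockout mice 5 and 6, against 240 and 218 CPM in wild type mice 1 and 3 (log2 fold change -0.84; quasi-likelihood adjusted p = 0.0430). Klf6 was at 92.07 and 100.01 CPM in the knockout mice, against 154 and 157 CPM in the wild type mice (log2 fold change -0.70; adjusted p = 0.0477). Btg2 had a log2 fold change of -0.74 and Klf2 one of -0.66 (adjusted p = 0.0477, Btg2, and 0.0430, Klf2). These calls depended on the test, as 0 of the 43 were called with limma voom or without robust estimation. The DESeq2 Wald test called 17 and the edgeR likelihood ratio test 12. Where 2 libraries had to reach 1 CPM, 0 of 40 were called. The number called also changed when single libraries were left out, falling without either knockout mouse and rising without either wild type mouse.

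The 4 most abundant genes of the list were Jun, Fos, Zfp36l2 and Zfp36. The AP-1 genes Jun and Fos stood at log2 differences of -0.45 ± 0.12 and -0.37 ± 0.10 (SE; quasi-likelihood adjusted p = 0.308 and 0.369), close to the -0.32 of Egr1. The mRNA decay factors Zfp36 and Zfp36l2 had -0.72 ± 0.092 and -0.25 ± 0.12 (SE; adjusted p = 0.0514 and 0.600). Among the 43, the value of Nr4a1 was exceeded in size only by Atf3 (-1.29) and Maff (-1.21). Both were of lower level and not called, with means of 6.11 and 0.785 CPM. Atf3 was at 3.31 and 3.76 CPM in knockout mice 5 and 6, against 9.19 and 8.17 CPM in wild type mice 1 and 3. Its quasi-likelihood adjusted p was 0.0681, near the threshold, and that of Maff was 0.428. The genes above 0 were Myc (0.085) and Hbegf (0.066), on the side of Nr4a2. Atf3, Maff, Myc and Hbegf were named after their values were seen.

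**Figure D3:**
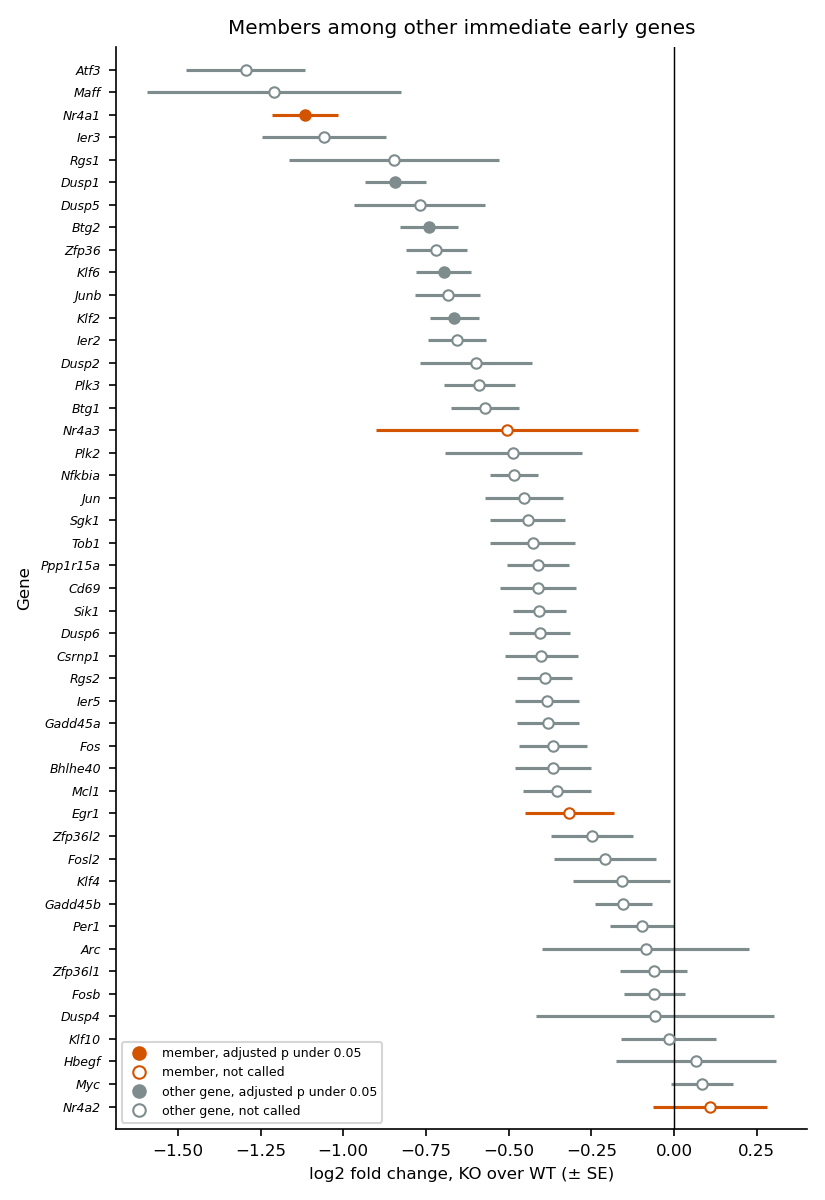
Log2 fold change, knockout over wild type, with its SE (x axis) for the 4 members in orange and 43 other immediate early genes in grey, ordered by value down the page. Filled points passed the quasi-likelihood test over all genes. Nr4a1 (-1.12) is near the low end, Egr1 (-0.32) lies among the other genes and Nr4a2 (0.11) has the highest value.

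Transcripts of the neutrophil and other lineages also differed between the groups. Of 10 neutrophil markers, 2 (Retnlg and Cxcr2) fell by quasi-likelihood (0.103% of all genes fell) and 0 rose. All 10 were lower without overlap between the groups (20.9% of all genes). Summed levels were 14038 and 14242 CPM in knockout mice 5 and 6. In wild type mice 1 and 3 they were 19962 and 28333 CPM. The 2 wild type libraries differed 1.42-fold in that sum, in which the most abundant genes weigh most. The called Cxcr2 was at 52.1 and 53.5 CPM in the knockout mice and 80.9 and 87.5 CPM in the wild type mice. Of 11 monocyte and macrophage markers 0 were called, and their summed levels were 1456 and 1558 CPM in the knockout mice and 1581 and 1818 CPM in the wild type mice. Sums of 8 T and NK cell markers were 164 and 177 CPM in knockout mice and 246 and 171 CPM in wild type mice. This sum was highest in wild type mouse 1, as were Nr4a3 and the sum of stem and progenitor markers given below. Of the 8 markers, Cd4 was instead lowest in that mouse, at 7.13 CPM. Sums of 6 B cell markers were 178 and 138 CPM in the knockout mice and 192 and 211 CPM in the wild type mice, lowest in knockout mouse 6 as for Egr1.

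Sums of 11 stem and progenitor markers, with 0 called, were 657 and 604 CPM in knockout mice 5 and 6 and 770 and 568 CPM in wild type mice 1 and 3. Erythroid markers (6 genes, 0 called) summed to 1182 and 1009 CPM in the knockout mice and 839 and 987 CPM in the wild type mice. Of 5 megakaryocyte markers Ppbp and Pf4 rose (0.032% of all genes rose). The 5 summed to 292 and 264 CPM in knockout mice and 217 and 186 CPM in wild type mice. The 7 measured stroma and endothelium markers, 0 called, summed to 717 and 674 CPM in knockout mice and 146 and 242 CPM in wild type. Col1a1 and Col1a2 carried most of that gap. Col1a1 was at 352 and 326 CPM in the knockout mice and 4.73 and 80.1 CPM in the wild type mice. Of the 7, 2 had negative log2 fold changes, Pecam1 (-0.16) and Pdgfrb (-0.23). Cd4 and these 4 genes were named after their values were seen. No measured marker in any list had a count of 0 in any library. The fewest were the 2 counts of Bglap in wild type mouse 1, a gene also named after its values were seen. Mitochondrial transcripts took 0.643% and 0.634% of counts in the knockout mice and 0.835% and 0.583% in the wild type mice. In the lists with 0 called by quasi-likelihood, an unadjusted p under 0.05 was found for 3 B cell markers, for 1 each of the monocyte, stem and progenitor, erythroid and stroma markers and for 0 of the T and NK cell markers. The DESeq2 Wald test called all 10 neutrophil markers, 3 megakaryocyte markers and 1 each of the monocyte, B cell, erythroid and stroma markers. By limma voom 0 neutrophil and 0 megakaryocyte markers were called, with an unadjusted p under 0.05 for 10 and 4 of them. Without knockout mouse 5 both lists also had 0 called, and without knockout mouse 6 the neutrophil list had 0, while without wild type mice 1 and 3 in turn 10 and 4 neutrophil markers were called. None of the lists with 0 called over the 4 libraries stayed at 0 throughout when wild type mice 1 and 3 were left out in turn. The part of any of these transcripts in the values of the members was not tested.

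The genes nearest to each member in pattern were found among 9222 genes of at least 10 CPM, by the root mean square difference of log2 CPM, each less its mean over the 4 libraries. Nearest to Nr4a1 were the MHC class I gene H2-Q10 (difference 0.094), the formyl peptide receptor Fpr2 (0.12) and the immunoglobulin segment Ighv1-53 (0.13), with log2 fold changes of -0.96, -0.97 and -0.87. Of these Fpr2, at 24.8 and 23.1 CPM in knockout mice 5 and 6 and 49.3 and 44.5 CPM in wild type mice 1 and 3, passed the quasi-likelihood test (adjusted p = 0.0353). Nearest to Nr4a3 were Gimap8, Gimap4 and Gimap6 of the lymphocyte GTPase family (0.050, 0.050 and 0.059). Gimap4 was at 36.8 and 43.8 CPM in the knockout mice, against 71.5 and 35.4 CPM in the wild type mice, which is the pattern of a high wild type mouse 1.

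Nearest to Egr1 were Cd79a, Hsh2d and Cd79b (0.036, 0.046 and 0.050). Cd79a and Cd79b encode the signalling chains of the B cell receptor, and Cd79a was at 34.2 and 27.4 CPM in knockout mice 5 and 6, against 40.9 and 37.6 CPM in wild type mice 1 and 3. Nearest to Nr4a2 were U2surp, Oma1 and Gpn1, with differences of at most 0.0065, a flat pattern that many genes share. With 4 libraries such likeness is a description and carries no test.

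**Figure D4:**
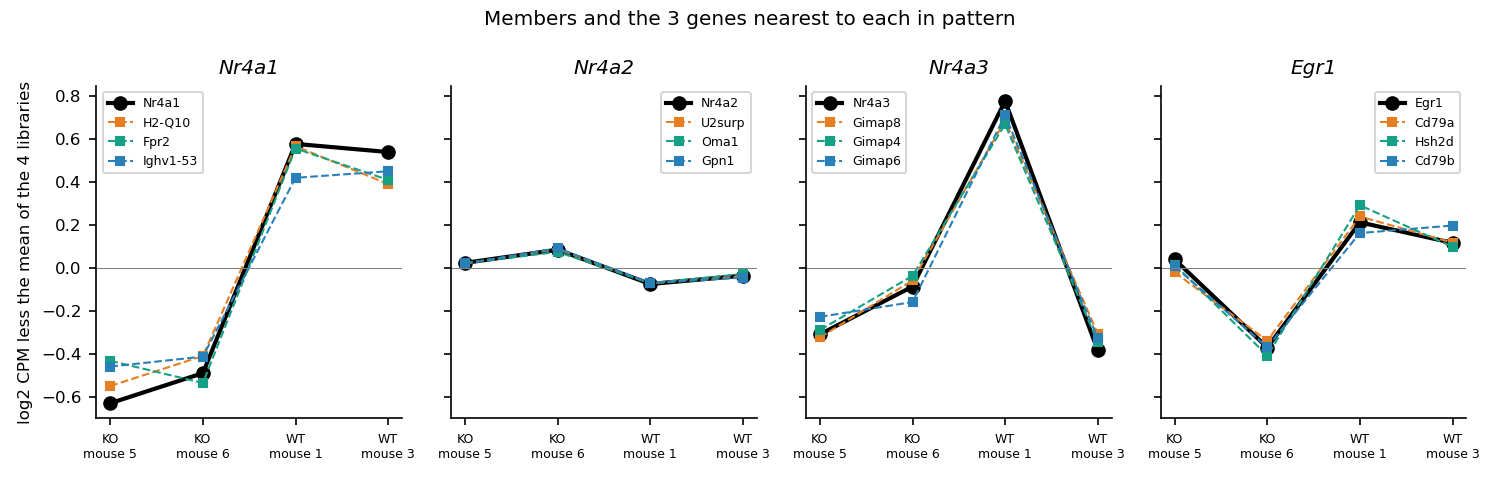
Log2 CPM less its mean over the 4 libraries (y axis, shared) for each member in black and the 3 genes nearest to it in pattern as dashed lines, with knockout libraries to the left. Nr4a1 steps between the groups, Nr4a3 and the Gimap genes peak in wild type mouse 1, Egr1 and its nearest genes are lowest in knockout mouse 6, and Nr4a2 is flat.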

How the data were processed

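The authors deposited raw counts for each gene and library, with log2 CPM and log2 RPKM columns beside them. The log2 fold change, p-value and adjusted p of their own comparison are in the same table, per the file headers. The submitters' processing notes name FastQC, MultiQC 0.11.5, Trimmomatic 0.40, STAR 2.5, edgeR 3.28.1 and mm10. Which program counted reads, with which annotation and strand setting, is not given in the sources used here. A further 2 columns of per-sample values matched no described sample and were not used. Each row has at least 24 counts in all.

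Counts were fitted for all 15607 genes with edgeR 4.0.16 in R 4.3.3 (TMM, robust quasi-likelihood F test, Benjamini-Hochberg over all genes, threshold 0.05), leaving 2 residual degrees of freedom, and members were read from that fit. filterByExpr removed no gene. Simulated counts, whose spread followed gene level alone, served only to check the code and say nothing about the calls reported here. CPM and RPKM use TMM-scaled library sizes and, for RPKM, the deposited exon length. DESeq2 1.42.0 and limma 3.58.1 served as alternatives. Members, lists and tests were chosen with earlier results of these data known. Mkl1 and Mkl2 were matched as Mrtfa and Mrtfb through RefSeq synonyms. Genes were named by a rule: all members, every gene of the short pathway lists, the 2 smallest p in longer ones, the called and the 4 most abundant other early genes, and the 3 nearest in pattern per member.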

Additional observations from a re-analysis of the deposited data

How the results depend on the processing

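The log2 fold changes of Nr4a1, Nr4a2 and Egr1 kept their direction in all 12 alternatives, and Nr4a1 was called in 9 of them. The log2 fold change of Nr4a3 ranged from -0.98 (without wild type mouse 3) to 0.19 (without wild type mouse 1). Members called numbered 0 by limma voom and by quasi-likelihood without robust estimation, and from 0 (without knockout mouse 5) to 1 without each library in turn. The median of the members ranged from -0.68 (without wild type mouse 3) to -0.089 (without wild type mouse 1). Genes called, 21 in the fit reported, numbered 216 by the DESeq2 Wald test, 177 by the edgeR likelihood ratio test, 10 with at least 1 CPM in 2 libraries, 4 without robust estimation and 0 by limma voom, which had 1363 at an unadjusted p under 0.05. Without each library in turn they numbered 5 (knockout mouse 5), 18 (knockout mouse 6), 289 (wild type mouse 1) and 844 (wild type mouse 3). Other immediate early genes called, 4 in the fit reported, numbered 17 by DESeq2, 12 by the likelihood ratio test, and 0 by limma voom, without robust estimation and with the CPM filter, and from 0 (without either knockout mouse) to 13 (without wild type mouse 1) and 23 (without wild type mouse 3). Without 1 library the spread comes from the complete pair alone, and the lone mouse is assumed to vary as that pair does. The cause of these differences was not tested. No paired analysis was possible because the groups share no mouse numbers. At 35 to 79 counts, Nr4a3 is the member whose depth limits it most.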
